A study of Mus musculus with 3 samples.

Results

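The open chromatin of wild type (WT) mouse islets was described from the peaks of a single ATAC-seq library. ATAC-seq finds accessible DNA with a transposase that cuts it and adds adapters for sequencing. The members were the peaks of the WT list on chromosomes 1 to 19. They numbered 59626 of the 60900 peaks in that list, and the series holds 362983 peaks in 3 lists.

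The series compared islets of control mice with islets whose beta cells had lost Taf4, which encodes a TFIID subunit. Only the control library is described. Its labels give the genotype as wild type, the strain as C5LBl6, the tissue as cells from isolated Langerhans islets and no time point. The islets were purified and their cells dissociated with Accutase, a step that the paper itself describes under single-cell RNA-seq. The paper's account of islet isolation also includes a period of culture after purification. The study calls its ATAC-seq controls Taf4+/+ and describes such animals as carriers of Ins1::Cre-ERT2, a tamoxifen-inducible recombinase driven by an insulin promoter, that were given tamoxifen as adults like the mutants. The labels of this library name neither the transgene nor tamoxifen, and the exact age at sampling and the number of animals pooled are not given in the sources used here. With 1 library there was no replicate, so no test was made and no p-value was computed. The intervals given are Wilson 95% intervals, which cover the counting of peaks or genes and not the difference between animals.

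Islets are clusters of endocrine cells scattered through the exocrine pancreas. In the mouse, beta cells that release insulin are the most numerous, beside alpha cells that release glucagon, delta cells that release somatostatin and rarer PP and epsilon cells. Promoters lie at the start of genes and are open in most cells that use the gene, whereas distal regions, among them enhancers, are bound by transcription factors in a way that differs from one cell type to another. In bulk chromatin, a weak peak can come from a weakly open site in all cells or from an open site in few of them, and these cannot be told apart.

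The upstream sequences of 6 promoters are shown to set the strongest promoters of all beside those of islet genes. M6pr and Atp5g1 were among the strongest, Ins1 and Ins2 encode insulin, G6pc2 encodes the islet form of the glucose-6-phosphatase catalytic subunit and Pdx1 encodes a homeodomain factor of beta cells. Each sequence is 250 bases of mm9 that end 50 bases before the start of the gene, on the strand of the gene, 5′ to 3′. Capitals mark the letters of any of 17 short motifs that are spelled out with their frequencies further on.
M6pr (chr6:122258438-122258687, plus strand): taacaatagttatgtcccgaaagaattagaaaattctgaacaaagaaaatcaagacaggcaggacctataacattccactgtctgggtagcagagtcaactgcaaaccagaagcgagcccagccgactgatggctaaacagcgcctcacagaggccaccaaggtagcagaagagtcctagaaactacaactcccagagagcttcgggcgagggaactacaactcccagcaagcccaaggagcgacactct
Atp5g1 (chr11:95937035-95937284, minus strand): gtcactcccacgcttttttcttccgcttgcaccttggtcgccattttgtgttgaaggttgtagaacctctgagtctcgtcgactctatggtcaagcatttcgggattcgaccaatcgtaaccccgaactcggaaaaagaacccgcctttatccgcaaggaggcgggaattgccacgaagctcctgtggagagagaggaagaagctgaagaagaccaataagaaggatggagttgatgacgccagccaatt
Ins1 (chr19:52338513-52338762, plus strand): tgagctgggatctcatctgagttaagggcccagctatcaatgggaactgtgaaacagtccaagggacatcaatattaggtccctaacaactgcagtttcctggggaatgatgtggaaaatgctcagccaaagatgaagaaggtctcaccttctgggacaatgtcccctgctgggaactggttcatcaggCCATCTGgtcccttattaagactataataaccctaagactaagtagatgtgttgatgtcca
Ins2 (chr7:149865682-149865931, minus strand): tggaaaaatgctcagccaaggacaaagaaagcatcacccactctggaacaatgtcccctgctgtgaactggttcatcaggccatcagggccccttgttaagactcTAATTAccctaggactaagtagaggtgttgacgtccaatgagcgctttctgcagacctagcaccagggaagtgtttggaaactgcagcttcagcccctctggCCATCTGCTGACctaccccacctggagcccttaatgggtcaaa
G6pc2 (chr2:69057728-69057977, plus strand): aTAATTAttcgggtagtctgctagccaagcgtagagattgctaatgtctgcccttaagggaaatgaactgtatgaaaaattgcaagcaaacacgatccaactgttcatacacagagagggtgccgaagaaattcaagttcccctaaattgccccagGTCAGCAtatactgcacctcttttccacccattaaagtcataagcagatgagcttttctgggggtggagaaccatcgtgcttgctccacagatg
Pdx1 (chr5:148081235-148081484, plus strand): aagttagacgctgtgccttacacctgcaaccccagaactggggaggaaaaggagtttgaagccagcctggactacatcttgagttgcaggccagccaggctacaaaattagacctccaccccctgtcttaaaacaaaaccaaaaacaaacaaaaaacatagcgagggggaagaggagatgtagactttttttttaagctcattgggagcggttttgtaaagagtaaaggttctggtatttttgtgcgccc

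The Ins1 stretch held no CpG and the NEUROD E-box letters CAGATGG on the minus strand. The Ins2 stretch held 2 CpGs, the E-box letters, the MAF letters TGCTGAC that overlap them and the homeodomain letters TAATTA. The Ins1 and Ins2 stretches do not cover matching parts of their promoters. Sequence much like the opening of the Ins2 stretch lies near the middle of the Ins1 stretch, and the E-box letters lie at different places of it. The part that matches the end of the Ins2 stretch is not printed for Ins1, so their letters cannot be compared directly. The G6pc2 stretch held the MAF and homeodomain letters and 5 CpGs. The M6pr, Atp5g1 and Pdx1 stretches held none of the 17 motifs, and the Atp5g1 stretch held 15 CpGs. Over the same stretch of 43969 distinct starts of protein-coding transcripts, the E-box letters were found in 4.03%, the MAF letters in 3.48% and the homeodomain letters in 4.39%. A match is a run of letters and was not tested as a binding site.

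The middle 300 bases of 7 distal peaks are shown next, on the plus strand. The first 3 are among the 4 strongest distal peaks whose sequence is nearly free of repeated words. The fourth comes from the distal peak of that kind with the highest fold, and the last 3 come from the strongest distal peaks around Iapp, Slc30a8 and Sst.
near Nt5c3 (chr6:56815439-56815738): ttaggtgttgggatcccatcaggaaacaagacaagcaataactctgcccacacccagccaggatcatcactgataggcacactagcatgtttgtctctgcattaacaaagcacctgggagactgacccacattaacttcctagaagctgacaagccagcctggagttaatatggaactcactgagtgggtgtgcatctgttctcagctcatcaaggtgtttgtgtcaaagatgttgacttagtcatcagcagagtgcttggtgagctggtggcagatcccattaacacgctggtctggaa
near Btg1 (chr10:96109046-96109345): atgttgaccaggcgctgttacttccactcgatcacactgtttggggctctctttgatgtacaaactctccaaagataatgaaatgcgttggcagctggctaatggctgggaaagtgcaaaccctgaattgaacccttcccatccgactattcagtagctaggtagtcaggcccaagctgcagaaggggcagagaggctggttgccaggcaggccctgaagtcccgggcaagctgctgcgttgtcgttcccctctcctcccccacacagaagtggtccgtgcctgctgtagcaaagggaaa
in Epb4.1l3 (chr17:69616928-69617227): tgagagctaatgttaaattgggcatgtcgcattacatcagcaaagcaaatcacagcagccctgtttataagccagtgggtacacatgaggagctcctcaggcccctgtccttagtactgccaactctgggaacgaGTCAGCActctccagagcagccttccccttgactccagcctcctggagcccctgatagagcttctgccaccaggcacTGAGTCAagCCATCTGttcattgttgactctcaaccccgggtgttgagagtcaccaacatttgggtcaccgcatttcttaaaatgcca
near Pvrl3 (chr16:46776579-46776878): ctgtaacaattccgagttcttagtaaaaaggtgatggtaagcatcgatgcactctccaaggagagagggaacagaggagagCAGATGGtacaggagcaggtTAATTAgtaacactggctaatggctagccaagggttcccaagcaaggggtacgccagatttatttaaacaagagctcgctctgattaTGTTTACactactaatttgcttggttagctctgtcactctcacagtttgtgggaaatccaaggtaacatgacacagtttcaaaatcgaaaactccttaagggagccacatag
around Iapp (chr6:142238109-142238408): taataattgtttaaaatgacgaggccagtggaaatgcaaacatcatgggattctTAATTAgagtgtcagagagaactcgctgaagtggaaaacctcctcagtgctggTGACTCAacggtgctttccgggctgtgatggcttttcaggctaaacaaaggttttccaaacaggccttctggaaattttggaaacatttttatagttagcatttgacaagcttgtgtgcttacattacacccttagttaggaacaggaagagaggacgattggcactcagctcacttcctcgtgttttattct
around Slc30a8 (chr15:52147780-52148079): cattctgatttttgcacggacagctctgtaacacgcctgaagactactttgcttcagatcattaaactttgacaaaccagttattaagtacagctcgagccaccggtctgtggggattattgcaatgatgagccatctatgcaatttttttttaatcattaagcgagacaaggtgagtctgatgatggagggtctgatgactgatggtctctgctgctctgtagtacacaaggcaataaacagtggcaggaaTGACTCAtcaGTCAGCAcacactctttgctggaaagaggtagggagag
around Sst (chr16:23842768-23843067): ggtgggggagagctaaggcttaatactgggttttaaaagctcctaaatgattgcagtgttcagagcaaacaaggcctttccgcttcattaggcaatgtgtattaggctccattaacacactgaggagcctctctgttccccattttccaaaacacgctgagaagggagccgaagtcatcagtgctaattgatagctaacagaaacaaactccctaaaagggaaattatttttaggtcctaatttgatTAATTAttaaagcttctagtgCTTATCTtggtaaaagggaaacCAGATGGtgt

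The Epb4.1l3 window held the AP-1 letters TGACTCA, the MAF letters and the E-box letters, and the Pvrl3 window held the FOXA letters TGTTTAC, the E-box and the homeodomain letters. The window around Iapp held the AP-1 and homeodomain letters and that around Slc30a8 the AP-1 and MAF letters. The window around Sst held the E-box and homeodomain letters and the GATA letters AGATAAG. None of the 17 motifs was found in the windows near Nt5c3 and Btg1. How often each occurs over all distal peaks is given with the motifs.

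The 59626 peaks covered 38.6 Mb, which is 1.61% of the known bases of the autosomes, at 24.9 peaks per Mb. Each peak has 2 measures of strength, both averaged over its length by the peak caller. The fold is the ratio of the reads piled up there to the local background, and the -log10 q expresses how far they exceed that background after correction for the number of places looked at. The median length was 500 bp, within a range of 200 to 4451 bp, the median -log10 q 3.71 and the median fold 3.18. The fold ranged from 1.59 to 13.5 and the -log10 q from 1.02 to 101. Read totals are not given in the list. If the mean fold and mean p of a peak are read as those of a single position, they imply a median pileup of about 17.7 reads over a median background of 4.58 reads, so a typical peak rests on few reads. No 2 peaks were closer than 801 bp.

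Peaks were not spread evenly over the chromosomes. Chromosome 11 had the most, 35.6 peaks per Mb, and chromosome 3 the fewest, 18.9 peaks per Mb. Across the 19 autosomes the density followed the GC content, with Spearman's rho = 0.937 and Pearson's r = 0.940, and the density of protein-coding genes, with rho = 0.867 and r = 0.827. These are descriptions over chromosomes of the same library.

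A peak was placed at a promoter when it overlapped, by at least 1 bp, the window from 1000 bp upstream to 100 bp downstream of the start of a protein-coding transcript. Promoters held 12510 peaks, or 21.0% (interval 20.7 to 21.3), although these windows make up 1.38% of the known bases. By their midpoints, 23717 other peaks (39.8%) lay in introns, 20306 (34.1%) between genes and 3093 (5.19%) in exons. Distal peaks, which lay over 5000 bp from any annotated start, coding or not, numbered 37163 or 62.3% (interval 61.9 to 62.7), where such sequence makes up 83.5% of the known bases.

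Promoter peaks were longer, stronger and richer in CpG than distal peaks. Their median length was 987 bp against 418 bp, their median -log10 q 11.1 against 3.01 and their median fold 4.15 against 3.06. The median GC content was 61.2% against 49.4%, and the median ratio of observed to expected CpG was 0.725 against 0.220. A start lay inside 11538 promoter peaks (92.2%). Of all promoter peaks, 1173 (9.38%) overlapped the windows of coding genes on both strands, and these had a median -log10 q of 15.7 against 10.6 for promoter peaks with genes on a single strand.

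The share of promoters rose with strength. It was 4.84% (interval 4.50 to 5.22) among the 13769 peaks with a -log10 q from 1 to 2 and 11.3% (10.7 to 11.9) from 3 to 5. From 10 to 20 it was 52.8% (51.8 to 53.9), and from 30 upwards 80.6% (77.0 to 83.8), or 420 of 521 peaks. Distal peaks fell from 75.3% of the weakest to 15.2% of the strongest group. Of the 1000 strongest peaks by -log10 q, 809 were at promoters, and of the 1000 with the highest fold, 636.

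**Figure D1:**
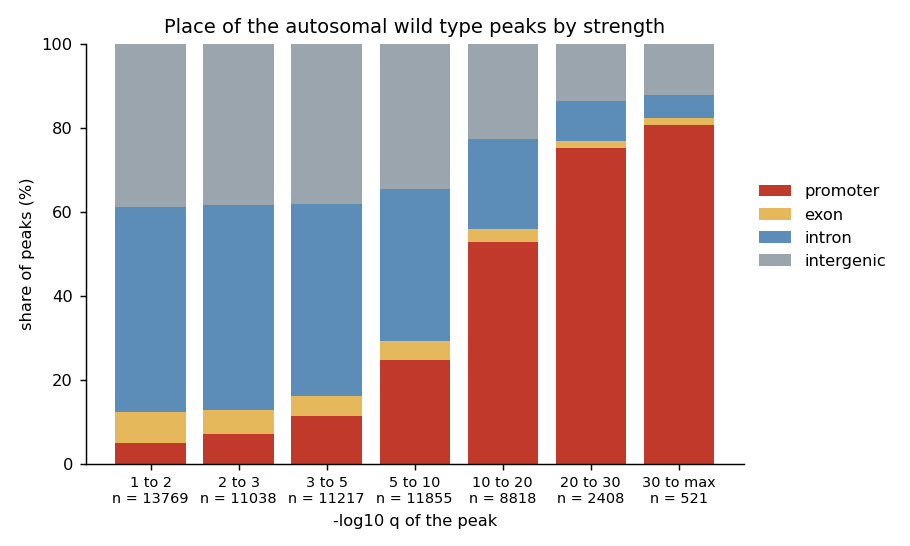
Share of autosomal WT peaks (vertical axis, percent) at promoters, in exons, in introns and between genes, in 7 groups of increasing -log10 q (horizontal axis, with the number of peaks). Promoters make up 4.84% of the weakest and 80.6% of the strongest group.

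A promoter peak was found at 12793 of the 21410 protein-coding genes on the autosomes, or 59.8% (interval 59.1 to 60.4). Its presence followed the CpG content of the promoter window. When genes were put into 3 groups of equal size by the ratio of observed to expected CpG, 11.3% of the lowest group, 73.2% of the middle group and 94.8% of the highest group had a promoter peak.

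The strongest promoter by -log10 q was that of Gm10800 on chromosome 2 (chr2:98506465-98507534, -log10 q of 96.9, fold of 5.59), a predicted gene, but 75.9% of the 24-base words of this peak were found more than once in the genome. Among the other 19, the share of such repeated words was at most 13%. The highest of these 19 by -log10 q was M6pr (chr6:122258489-122259149), which encodes the cation-dependent mannose-6-phosphate receptor that sorts lysosomal enzymes, at 52.6 with a fold of 8.44. The remaining 18 lay between 42.0 and 49.8, so that their order rests on small differences.

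Transcription and chromatin genes in this group were Sp1, a zinc finger activator of many promoters (-log10 q of 49.8), Parp2, a poly(ADP-ribose) polymerase of DNA repair (46.9), H2afv, a variant of histone H2A.Z (44.6), Chd2, a chromatin remodeller (43.9), and Suv420h2, a histone H4 methyltransferase (43.0). Mitochondrial and metabolic genes were Atp5g1, a subunit of ATP synthase (47.8), Tomm40, the channel of protein import into mitochondria (44.1), and Mdh1, the cytosolic malate dehydrogenase, whose peak it shared with Wdpcp (42.0). Genes of RNA, protein and vesicle handling were Pabpn1, which binds poly(A) in the nucleus (44.3), Copz1 of the COPI coat (44.0), Ap2a1 of the clathrin adaptor (43.1) and Rps19 of the ribosome (42.7). The others were Tsga10 (44.8), Pcmtd1 (44.6), the kinase gene Rps6ka5 (44.1), Dtwd2 (43.1), the shared peak of C2cd3 and Ppme1 (42.3) and Cbwd1 (42.0). In all 20 of them a start lay inside the peak, and 2 of the 20 overlapped windows on both strands.

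Ranking by fold gave a different group. It began with Cbwd1 (fold of 9.26), followed by Naa38 (8.93), Fbxw7, the substrate receptor of a ubiquitin ligase (8.91), Med23, a Mediator subunit (8.85), and Cast, the inhibitor of calpains (8.65). Parp2 (8.63), Zfp619 (8.54), BC002059 (8.49), M6pr (8.44) and Ankrd5 (8.43) completed the 10. Of these, BC002059 had 63.3% repeated words. Only Cbwd1, Parp2 and M6pr stood among the 20 strongest by both measures, and 25 of the 100 strongest and 574 of the 1000 strongest did. The 2 measures were nevertheless related over all promoter peaks (Spearman's rho = 0.891 across peaks, which are not independent replicates). No gene of the islet lists described further on was among the 100 strongest promoters by either measure. Ins1 was the only one among the 1000 strongest by -log10 q, which ended at 25.2, and G6pc2 just missed that limit at 25.1. By fold G6pc2 was the only one, at 6.87, where the 1000 ended at 6.15. The share of all genes in these groups is not given here, so the counts are not read as low or high.

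The strongest distal peaks were of another kind. The 7 highest by -log10 q, from 50.6 to 101, and the 8 highest by fold, from 10.4 to 13.5, all had over 20% of repeated words. The highest by -log10 q was chr9:35112724-35113262, between genes and 23.3 kb from the nearest coding start, that of Gm5614, with a fold of 12.7 and 49.6% repeated words. The highest by fold was chr3:5860280-5860861, 284 kb from the start of Pxmp3, with a fold of 13.5, a -log10 q of 90.5 and 65.1% repeated words. The others of these 7 had Limd1 (75.9), Filip1l (60.4), Ly6c2 (60.1), 1700012B15Rik (51.0) and Chl1 (50.6) as the nearest coding gene. An intron peak of Gphn (41.5) was the other one of the 20 with repeated words, and by fold a peak whose nearest coding gene was 4930546C10Rik (10.4) was added. The authors kept reads with a single best place in the genome. The limit of 20% was chosen after these values had been seen, and words were counted for the 100 strongest promoter and distal peaks by each measure.

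Repeated words were less common further down the 100 strongest. They affected 8 of the 20 and 13 of the 100 strongest distal peaks by -log10 q, against 1 of 20 and 6 of 100 at promoters. No autosomal peak held a 40-base word of the mitochondrial genome.

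**Figure D2:**
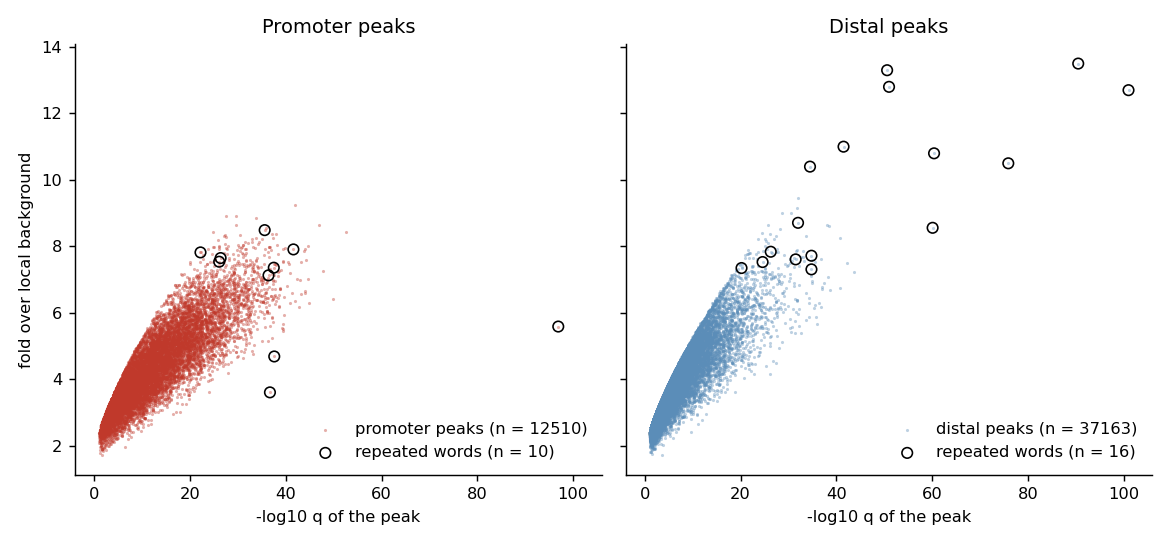
Fold over the local background (vertical axis) against -log10 q (horizontal axis) for the 12510 promoter peaks (left) and the 37163 distal peaks (right), 1 point per peak, with circles around the peaks found to have over 20% repeated words among the 100 strongest by either measure. The distal peaks with a -log10 q above 50 are all circled, and the lone promoter peak near 97 is that of Gm10800.

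The strongest distal peaks with few repeated words had a -log10 q close to that of strong promoters. The highest was chr6:56815195-56815982 in an intron, 31.8 kb from the start of Nt5c3, with a -log10 q of 43.6 and a fold of 7.23. The next was chr10:96108799-96109591 between genes, 29.2 kb from Btg1, which encodes an antiproliferative factor, with a -log10 q of 42.3 and a fold of 7.51. A peak between genes on chromosome 18 (40.8) lay 387 kb from Zfp608, and chr17:69616667-69617487 (40.8) lay in an intron 13.6 kb from a start of Epb4.1l3, a membrane skeleton gene. The other members of the 20 strongest lay nearest to Nenf (38.6), Zfp317 (38.5), Hlx, a homeodomain gene (38.3), Rpl29-ps5 (38.1), Csnk1a1, a casein kinase gene (37.5), Cenpc1 of the centromere (37), Arhgap11a (36.9) and Mtmr7 (36.8). By fold, the highest without repeated words were a peak 279 kb from Pvrl3 (9.47) and an intron peak 12.1 kb from a start of Wls, which carries Wnt proteins to the cell surface (9.16). These genes are named as the nearest only, and no link between a peak and a gene was measured.

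Of the 100 strongest distal peaks by -log10 q, 63 lay between genes, 35 in introns and 2 in exons, at a median of 38.7 kb from the nearest coding start. Fold and -log10 q shared 10 of the 20, 42 of the 100 and 614 of the 1000 strongest distal peaks. None of the 100 strongest lay in or within 50 kb of a gene of the islet lists, and 16 of the 1000 strongest by -log10 q did. These 16 lay at 15 of the 78 islet genes, and 6.76% of all genes had 1 of the 1000 there. For the 100 strongest the share of all genes is not given here, so their absence is not read as a trait of islet genes.

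The letters of short motifs were counted in windows of 300 bp at the midpoints of peaks, on both strands, and in windows of the same length 5000 bp to either side that touched no peak. In distal windows the AP-1 letters TGACTCA were found in 10.3% against 5.10% beside the peaks, and in 15% of the strongest 10% by -log10 q. The FOXA letters TGTTTAC were found in 8.58% against 4.05%, with 12.3% in the strongest, and the E-box letters CAGATGG, read by NEUROD1 and related factors, in 11.8% against 6.78%, with 14.2%. The MAF letters TGCTGAC were at 8.06% against 4.56%, the HNF1 letters GTTAATNAT at 1.51% against 0.806% and the RFX letters GTTGCCATG at 0.880% against 0.352%. The factors that read these letters include regulators of islet cells such as FOXA2, MAFA and RFX6. The CTCF core AGGGGGCGC, bound by the insulator protein CTCF, was rare at 0.622% but over 10 times as frequent as beside the peaks, at 0.0587%.

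Letters better known from promoters were also more frequent in distal windows than beside them, though at lower levels. The USF E-box GTCACGTG was at 0.934% against 0.440%, the SP/KLF letters GGGGCGGGG at 1.02% against 0.659%, the CRE letters TGACGTCA at 0.433% against 0.231%, the ETS letters CCGGAAGT at 0.425% against 0.281% and the NRF1 letters GCGCATGCG at 0.183% against 0.0699%. The NFY letters CCAATCAG were at 1.30% against 1.05%. The homeodomain, GATA, YY1 and ZNF143 letters were not more frequent. The homeodomain letters TAATTA were at 7.90% against 8.37% and the GATA letters AGATAAG at 3.74% against 4.12%, although among the strongest distal peaks the homeodomain letters were in 373 of 3717 windows, against 8.23% beside them. Distal windows had a median GC content of 49.3% against 44.7% beside them, which by itself changes how often letters occur, and its part was not tested.

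In promoter windows these 6 sets of letters and those of YY1 stood further above the windows beside them. The SP/KLF letters were in 13.6% against 0.668% beside the peaks, the ETS letters in 4.93% against 0.284%, the NFY letters in 2.97% against 0.948%, the YY1 letters AAGATGGCG in 2.50% against 0.169%, the USF E-box in 2.23% against 0.40%, the CRE letters in 1.75% against 0.210% and the NRF1 letters in 1.74% against 0.0948%. The CTCF core was in 1.65% of promoter windows against 0.0866%, a higher share than in distal windows, and the RFX letters were in 0.504% against 0.280%. The ETS and NFY letters rose to 9.75% and 8.79% in the strongest 10% of promoter peaks, while the SP/KLF letters stayed at 14.0%. The ZNF143 letters ACTACAATT were rare in both classes, at 0.288% in promoter and 0.110% in distal windows. The AP-1, FOXA and E-box letters were less frequent in promoter windows than beside them, at 2.94% against 5.23%, 1.84% against 3.95% and 3.71% against 7.24%. The median GC content was 65.0% in promoter windows and 45.0% beside them, and the part of GC content was not tested.

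**Figure D3:**
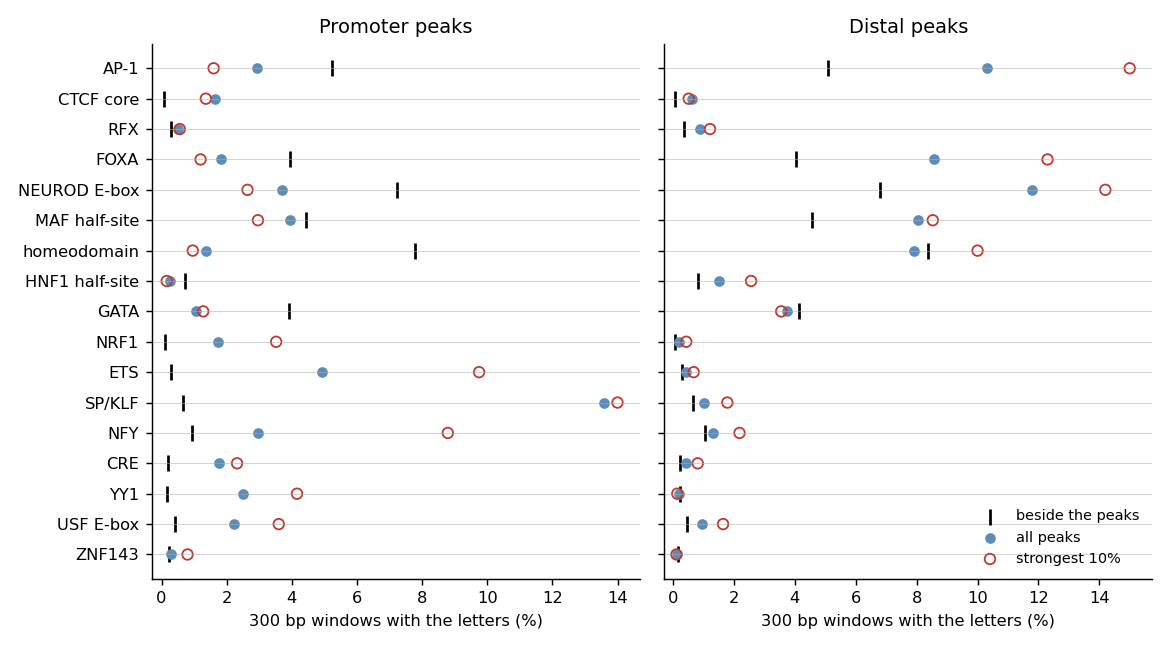
Share of 300 bp windows (horizontal axis, percent) that hold the letters of each of 17 motifs (vertical axis) at promoter peaks (left) and distal peaks (right), with dots for all peaks, open circles for the strongest 10% by -log10 q and bars for windows beside the peaks. The AP-1 letters reach 15% in the strongest distal peaks and the SP/KLF letters 14.0% in the strongest promoter peaks.

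The median protein-coding gene had 5 peaks in its body and the 50 kb on each side of it, 2 of them distal, which is 3.99 peaks per 100 kb. For 12.6% of genes this span held no peak. A single peak can be counted for several neighbouring genes.

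The genes with most peaks were long. Gm20388 (316 peaks) and Fgfr2 (124 peaks) came first, but their gene models in this annotation span 4435 and 3009 kb and enclose 72 and 31 other coding genes, so these counts are not those of a single gene. The other 13 of the 15 are given with their known roles. Their order did not follow length, since Ptprn2 (792 kb) came before Arfip1 (1391 kb). Over all genes, the number of peaks in the span was related to the length of the span with Spearman's rho = 0.345. Ptprn2, which encodes the dense-core vesicle protein phogrin, had 69 peaks over 792 kb, and 65 of them were distal. Cacna1c, the pore-forming subunit of an L-type calcium channel, had 49, and the acid-sensing channel gene Accn1 had 58. Prkce, a protein kinase C, had 44, Agap1 of endosomal traffic 45 and Arfip1, which holds 5 other coding genes, 61. Regulators of transcription and signalling were Maml3, a Notch coactivator (54), Rora, a nuclear receptor (49), Camta1 (47), Rere (47), Arid1b of the BAF chromatin remodeller (45), the RNA-binding protein gene Msi2 (51) and Arhgap26, a GTPase regulator (54). Among the 13 genes after Fgfr2, the density ranged from 4.09 peaks per 100 kb at Arfip1 to 10.7 at Rere.

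Per 100 kb of span, genes with bodies of at most 25.5 kb came first, among genes with at least 10 peaks. Gm15319 on chromosome 8 had 17.5 peaks per 100 kb, with 20 of its 22 peaks distal and no promoter peak. BY080835 (17.3), Ifrd2 (17.1), Hyal3 (16.9) and Gnai2 (16.5), a G protein subunit gene, lie close together on chromosome 9 and have overlapping spans. Midn (17.3), the cold-inducible RNA-binding protein gene Cirbp (16.9) and 1600002K03Rik (15.7) likewise lie together on chromosome 10. Hes1, a repressor in the Notch pathway, had 16.4, with 13 of its 17 peaks distal, and Car6 15.7, with 7 of 18 distal. No gene was among the 15 first by both number and density. Over all genes the number of peaks in the body followed the length of the body, with Spearman's rho = 0.675 across genes.

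Genes known from islet cells were compared with genes known from other cells. The lists were chosen with earlier results of these data known, so that no test was made on them, and they are described by their counts beside the value for all genes. The islet lists held 78 genes on the autosomes, counting once each gene, such as Pdx1, that was in 2 lists. Of these 78, 61 or 78.2% had a promoter peak, against 59.8% of all genes. Of 76 genes of other cells of the pancreas, 14 or 18.4% had one, and of 122 genes of 10 other tissues, 17 or 13.9%. All 18 genes used by nearly all cells had one.

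**Figure D4:**
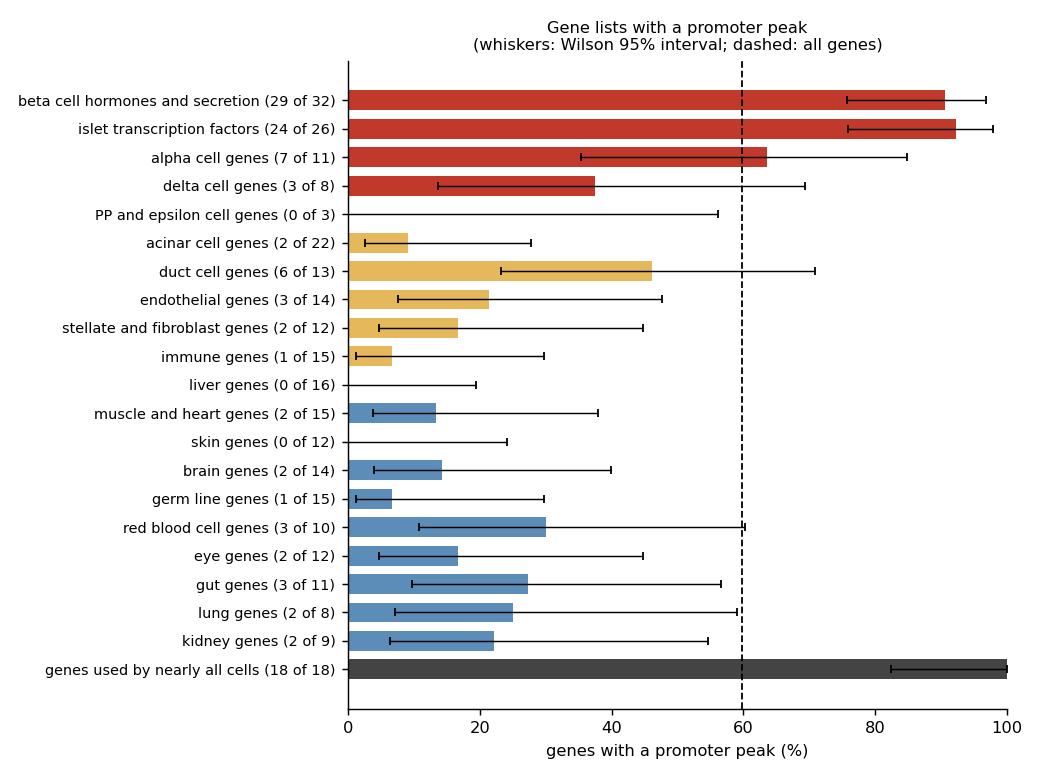
Share of the genes of each list with a promoter peak (horizontal axis, percent), with the number of genes in brackets, Wilson 95% intervals as whiskers and the share of all autosomal protein-coding genes (59.8%) as a dashed line. Beta cell genes and islet transcription factors lie above that line, and the lists of other tissues lie below it.

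The islet genes differed from each other. The beta cell list had a promoter peak at 29 of 32 genes and the islet transcription factors at 24 of 26. The alpha cell list had one at 7 of 11, the delta cell list at 3 of 8, and the PP and epsilon cell list at 0 of 3. The intervals of the last 3 lists were wide, as the plot by list shows, since they hold few genes.

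The CpG content of the promoters differed between the lists. In the lowest CpG group fell 65.6% of the genes of other tissues, 56.6% of those of other pancreatic cells and 23.1% of the islet genes. Within that group, where 11.3% of all genes had a promoter peak, 12 of 18 islet genes (66.7%) did, against 3 of 43 (6.98%) of the other pancreatic cells and 8 of 80 of the other tissues. The 12 included Ins1, G6pc2, Slc30a8, Chgb, Hnf4a, Iapp, Ins2, Ttr, Ucn3, Gc and Slc2a2. In the middle group, which held the most islet genes, the share was 27 of 36 for islet genes (75.0%) and 73.2% for all genes. In the highest group it was 22 of 24 for islet genes (91.7%) and 94.8% for all genes. The islet share thus stood well above that of all genes in the lowest group only.

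Among genes with a promoter peak, the median -log10 q of that peak was 7.40 in islet genes, 12.2 over all genes and 11.9 in the genes used by nearly all cells. The order depended on CpG. In the lowest CpG group the islet median was the higher, 6.14 against 4.86 over all genes, whereas it was the lower in the middle group, 7.58 against 10.6, and in the highest group, 7.31 against 14.1. Distal peaks around islet genes were more numerous and had higher values than over all genes. At least 1 distal peak lay in the body or within 50 kb for 71 of 78 islet genes, against 71.9% of all genes. The median islet gene had 9 peaks in that span, 5 of them distal, against 5 and 2 over all genes. The strongest distal peak in the span had a median -log10 q of 10.5 in islet genes that had one, 6.0 over all genes, 6.56 in genes of other pancreatic cells and 4.80 in genes of other tissues. One of the 1000 strongest distal peaks lay there for 15 of 78 islet genes (19.2%), against 6.76% of all genes, 4 of 76 (5.26%) genes of other pancreatic cells and 3 of 122 (2.46%) genes of other tissues. The median body was 19.8 kb long in islet genes and 15.5 kb over all genes, and the part of length in these counts was not tested.

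**Figure D5:**
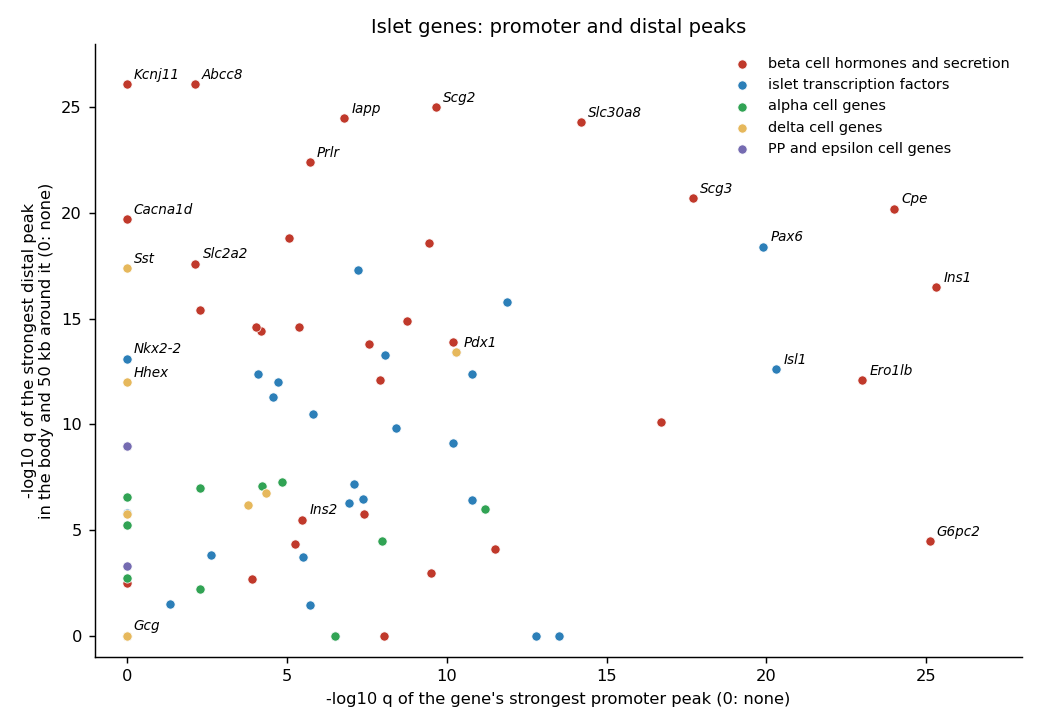
Each point is an islet gene, with the -log10 q of its strongest promoter peak (horizontal axis) against that of the strongest distal peak in its body and 50 kb around it (vertical axis), coloured by list, and 0 where it had none. Ins1, G6pc2 and Cpe lie far to the right, while Abcc8 and Kcnj11 lie at the top left and share their distal peak.

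The insulin genes differed from each other. At Ins1 the promoter peak (chr19:52338363-52339221) had a -log10 q of 25.3 and a fold of 4.73, the highest of the islet promoters and above 98.0% of all autosomal peaks. The Ins1 span held 3 more peaks, of which the one 11.8 kb upstream had a -log10 q of 16.5. At Ins2 the promoter peak (chr7:149862885-149866274) was 3390 bp long with a -log10 q of 5.48 and a fold of 2.44. The fold and p imply a pileup of about 45.1 reads at Ins2 over a background of 17.9, against 75.2 over 15.1 at Ins1. Both pileups lay above 17.7 reads, the median over all autosomal peaks, most of which are not at promoters. Promoter peaks alone had a median fold of 4.15 and a median -log10 q of 11.1. Ins2 lay below both of these medians and Ins1 above both. The values of Ins2 are a mean over a longer peak. At Iapp, which encodes amylin, the promoter peak reached 6.80, whereas peaks 8.69 and 16.3 kb upstream reached 24.5 and 33.0.

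Genes of glucose sensing were open at their promoters to different degrees. G6pc2 (chr2:69057664-69058201) had a promoter -log10 q of 25.1 and a fold of 6.87. Slc2a2, which encodes the glucose transporter GLUT2, had only 2.15 at the promoter, but 14 peaks in its span. One with its midpoint 1.83 kb upstream, outside the promoter window, had 7.45, and a peak 15.8 kb upstream had 17.6. Slc30a8, the zinc transporter of insulin granules, had 14.2 at the promoter and 24.3 at an intron peak 20.8 kb downstream of the start.

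The subunits of the ATP-sensitive potassium channel, Abcc8 and Kcnj11, lie beside each other on chromosome 7. Abcc8 had a promoter peak of 2.13 and 21 peaks in its span, 15 of them distal. Kcnj11 had no promoter peak, but a peak began 0.139 kb downstream of its start with a -log10 q of 2.84. The strongest distal peak of both was the same, chr7:53378088-53379104 in an intron of Abcc8, at 26.1, and an intron peak 34.1 kb downstream of the Abcc8 start reached 24.1. Among the calcium channel genes, Cacna1c had a promoter peak of 4.21 and Cacna1d none, although Cacna1d had 38 peaks, 34 of them distal, and a peak with a -log10 q of 15 began 0.487 kb downstream of a start.

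Genes of hormone processing and granules had the other strong promoters of the beta cell list. Cpe, carboxypeptidase E of prohormone processing, reached 24 and Ero1lb, an oxidase of the endoplasmic reticulum, 23.0. Scg3, a granin, reached 17.7. Of the prohormone convertases, Pcsk1 had 7.43 and Pcsk2 10.2, with 35 peaks in the span of Pcsk2. The granin genes Chgb, Scg2 and Chga had 11.5, 9.66 and 4.04, and Scg2 had a distal peak of 25.0. The incretin receptor genes Glp1r and Gipr had 5.38 and 7.58. Trpm5, a cation channel gene, had no promoter peak, and the nearest peak ended 2.61 kb upstream of a start.

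Among the transcription factors, the strongest promoters were those of Isl1 (20.3) and Pax6 (19.9), both of endocrine development, and the weakest that of Foxa1 (1.37). Pdx1 had 10.3 at the promoter, 14.1 at a peak 2.16 kb upstream and 10 peaks in all, of which 1 at the Cdx2 promoter, 37.1 kb downstream, was counted too. Foxa2 had 10.8, Hnf4a 10.8, Nkx6-1 8.42, Mafa 7.12 and Neurod1 5.83. Glis3 had 35 peaks in its span and the strongest distal peak of the list after Pax6, 17.3 against 18.4. The factors without a promoter peak were Nkx2-2 and Pax4. At Nkx2-2 the nearest peak lay 1.78 kb downstream of a coding start and a peak of 8.63 lay over the start of non-coding transcripts of the gene, 0.308 kb upstream of it by its midpoint. A distal peak of 13.1 lay 36.9 kb upstream of the gene. At Pax4, which acts mainly during development, the nearest peak was 22.9 kb away.

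The hormone genes of the rarer cell types had no promoter peak. Gcg, the glucagon gene, had 2 peaks in its span, and the nearer one ended 1.32 kb upstream of the start with a -log10 q of 7.49. Sst, the somatostatin gene, had 2 distal peaks, one ending 7.29 kb upstream of the start (5.39) and one of 17.4 that lay 48.0 kb downstream. Ppy and Pyy, which lie close together on chromosome 11, had 11 and 12 peaks in their spans, and a weak peak of 1.31 began 0.207 kb downstream of the Pyy start. The strongest peak in both spans, at 30.2, lay 15.4 kb upstream of Pyy and was not distal, since the start of the pseudogene Gm11585 lay near it. Ghrl, the ghrelin gene, had 10 peaks, the nearest 4.36 kb downstream.

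Other alpha and delta cell genes varied. Of the alpha cell list, Slc7a2, an amino acid transporter gene, had a promoter peak of 11.2, Etv1 7.99 and Ttr, transthyretin, 4.86. Irx2 had 4.24, Irx1 2.30 and Gc 2.29, while Loxl4 and Fev were among those with none. Of the delta cell list, Rbp4 (4.35), Ghsr (3.79) and Pdx1 had one, and Hhex, Cckbr, Lepr and Spock3 had none. At Hhex, a homeodomain factor of delta cells, a peak of 1.55 began 0.382 kb downstream of a start and a distal peak reached 12. Lepr had no peak in its body or within 50 kb, and Spock3 had 1.

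Of the 17 islet genes without a promoter peak, 7 had a peak within 1 kb of a coding start on its downstream side, 2 more had one within 2 kb, 5 within 10 kb and 3 only farther away. The 3 were Pax4, Lepr and Spock3. Whether a gene counts as open at its promoter thus depends for several of them on the window.

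Genes of the other cells of the pancreas had few promoter peaks. Of 22 acinar genes only Bhlha15 (6.15) and Rbpjl (3.88), both transcription factors, had one, and none of the digestive enzyme genes did. Of 13 duct genes 6 had one, among them Krt7 (11.9), Muc1 (10.3), whose peak also covers the Mtx1 promoter, Krt8 (9.31) and Krt18 (6.96). The endothelial list had Esam (12.6), Egfl7 (1.41) and Kdr (1.37) of 14, and the stellate and fibroblast list Pdgfra (4.09) and Rgs5 (1.53) of 12. The immune list had Cd74 (2.50) alone of 15. Absence from the list at this depth does not show that a promoter is closed in the few cells of such a type.

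Among the other tissues, 0 of 16 liver genes and 0 of 12 skin genes had a promoter peak. The muscle and heart list had Myh7 (2.62) and Nkx2-5 (1.80) of 15, the brain list Mbp (5.02) and Aqp4 (2.07) of 14, and the germ line list Dazl (13.5) of 15. The red blood cell list had 3 of 10, among them Ank1 (3.12) and Tal1 (1.83), the eye list Opn1sw (13.9) and Rlbp1 (1.24) of 12, and the gut list Lgr5 (8.15), Vil1 (5.61) and Cdx2 (2.62) of 11. The lung list had Foxj1 (3.27) and Sftpd (1.73) of 8 and the kidney list 2 of 9, among them Nphs1 (4.59), whose peak also covers the promoter of Kirrel2. Only Opn1sw and Dazl exceeded the median of all genes with a promoter peak, 12.2. Of the genes used by nearly all cells, Rplp0 (23.4) of the ribosome, Psmb2 (22.8) of the proteasome and Sdha (22.4), whose peak also covers Ccdc127, had the strongest peaks.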

How the data were processed

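ATAC-seq peaks of 1 WT islet library were described. Reads were mapped by the authors to mm9 with Bowtie 1.0.0, keeping those with a unique place, and broad peaks were called with MACS2 2.1.1 (versions from the submitters' processing notes, which also name bcl2fastq 2.17.1.14). Whether duplicates were removed or reads shifted to the insertion site is not given in the sources used here. The deposited list gives for each peak a ratio of reads to local background, called the fold, and the −log10 p and −log10 q, averaged over the peak. Peaks on chromosomes 1 to 19 were kept, and the other 2 lists of the series were not used.

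Genes came from GENCODE release M1 on NCBIM37, the same build as mm9, with 21410 autosomal protein-coding genes and 44018 starts. Promoters, distal peaks (over 5000 bp from any start), exons, introns and gene spans (50 kb on each side) were assigned with own scripts in Python 3.11.15 (numpy 2.4.6, pandas 2.3.3, scipy 1.17.1), tested on simulated data. The strand-matched start farthest upstream within the peak was used for each gene. Repeated sequence was measured as the share of 24-base words found more than once on either strand of the genome. Of 300 list entries, 296 were matched by symbol, Spi1 through its older symbol. Background and pileup were recovered from fold and p by the Poisson formula of the caller, for all but 2 peaks. The sequences are from NCBIM37.

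Named genes were the 20 promoter and 20 distal peaks with the highest −log10 q and the 10 with the highest fold, the 15 genes with most peaks and the 10 with most per 100 kb, islet genes without a promoter peak, those with the strongest promoters or most peaks, and up to 4 genes of each other list. Other islet genes and the distal peaks with few repeated words were chosen after their values were seen. The members and lists were chosen with earlier results of these data known. Results for some members of the lists are not reported here.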

Additional observations from a re-analysis of the deposited data

Results flagged for a closer look

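The WT list also holds peaks outside the chromosomes described above. There were 1272 peaks on chromosome X, at 7.85 peaks per Mb of known sequence against 24.9 on the autosomes, with a median -log10 q of 3.68 and a median length of 468 bp, and 1 of them ran past the end of the chromosome. The mitochondrial genome held 2 peaks, with a median -log10 q of 17.1, and chromosome Y held 0. They stand out only as signal in data that entered no comparison.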

How the results depend on the processing

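Of 38 alternatives, 19 left the value within its Wilson interval or, for counts, within 1.5 times. With a minimum -log10 q of 3 or 5, promoters made up 31.8% or 41.6% and distal peaks 53.6% or 45.7%. The promoter share was 20% with a window from 250 bp upstream to 50 bp downstream, 22.3% with 1000 bp on both sides and 13% with the midpoint inside the window, which left 8126 genes with a promoter peak. Outside the promoter window lay 79.0% of peaks, and over 20000 bp from any start 35.4%. Of the 20 strongest promoters, 3 stayed when ranked by fold and 0 by length. Of the 20 strongest distal peaks, 10 stayed by fold and 12 when those with repeated words were left out, an alternative chosen after seeing the data. Of the 15 genes with most peaks, 7 stayed with the minimum of 5 and 0 per 100 kb. The share of islet genes with a promoter peak was 56.4% with the minimum of 5, 87.2% with 1000 bp on both sides and 50% by midpoint, where other tissues had 4.10%, 18.9% and 9.02% and all genes 49.4%, 62.4% and 38.0%. The cause of these shifts was not tested, beyond what each setting fixes. Joining peaks within 500 bp changed no value, since none were that close.

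No paired analysis was possible because there was 1 library. With no replicate, no value has an error between animals. Depth limits the list: weak peaks rest on few reads, so the absence of a peak shows only that none was detected.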
